A study of Mus musculus with 4 samples.

Results

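The subunit genes of the proteasome were examined in sorted dermal papilla cells of mouse skin. The genes were chosen by name: a probe set counted where it was annotated to exactly 1 gene whose symbol is Psma, Psmb, Psmc, Psmd or Psme followed by a number. This gave 43 genes of the 19938 genes on the arrays, covered by 49 of the 28853 probe sets, and no measured value entered the choice. All 43 genes of this naming scheme in the RefSeq gene table were measured. They fall into 19 genes of the 20S core, 20 of the 19S cap and 4 of the activators.

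The cells came from mouse skin at postnatal day 5 and were sorted as positive for both Sox2GFP, a fluorescent reporter of Sox2, and Integrin-alpha 9. The dermal papilla is the knot of mesenchyme that the hair bulb encloses and that signals to the growing hair. One group was heterozygous for Sox2 (Het) and the other had a conditional knockout of Sox2 (cKO), with 2 arrays each, labelled replicates 1 and 2. Both groups were sorted with this reporter of the gene that was deleted in cKO. What drove the deletion is not given in the sources used here. The labels call the replicates biological without telling whether they came from separate animals or litters or from pooled tissue, and the p-values here cover the spread between these arrays only. The question behind the groups is which papilla transcripts depend on Sox2. Proteasome genes are also a housekeeping set, to be set beside the cytosolic ribosomal protein genes.

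The proteasome degrades proteins that carry chains of ubiquitin. Its 20S core is a barrel of stacked rings, with alpha subunits (Psma genes) in the outer rings and beta subunits (Psmb genes), some of them proteases, in the inner rings. The 19S cap recognises ubiquitin, removes it and feeds the unfolded protein into the barrel with a ring of ATPases (Psmc genes) and a set of other subunits (Psmd genes), while the Psme genes encode alternative activators of the core. Because the particle is built in fixed proportions, its genes are known to be induced together by NFE2L1, a transcription factor that binds the antioxidant response element in their promoters when proteasome activity is limiting.

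Promoter sequence is shown for 4 genes on which the results turn. These are Psmb5 and Psmd8, with the largest differences between the groups in the core and in the cap, Psmb6, a second catalytic subunit gene, and Psme4, the gene with the largest difference in the opposite direction. Each line gives the 200 bases before the annotated start of the gene, 5′ to 3′ on the strand of the gene, from RefSeq on GRCm38.p6; capitals mark matches to the core of the antioxidant response element, TGACNNNGC, on either strand.
Psmb5, chr14:54617996-54618195, minus strand: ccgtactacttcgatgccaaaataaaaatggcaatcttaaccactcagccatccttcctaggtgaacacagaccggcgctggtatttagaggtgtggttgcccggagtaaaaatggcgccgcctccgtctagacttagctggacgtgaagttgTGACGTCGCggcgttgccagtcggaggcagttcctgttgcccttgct
Psmb6, chr11:70525157-70525356, plus strand: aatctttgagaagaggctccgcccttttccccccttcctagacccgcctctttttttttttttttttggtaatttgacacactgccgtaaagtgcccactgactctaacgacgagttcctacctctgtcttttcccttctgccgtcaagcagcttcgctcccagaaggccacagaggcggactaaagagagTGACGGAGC
Psmd8, chr7:29180674-29180873, minus strand: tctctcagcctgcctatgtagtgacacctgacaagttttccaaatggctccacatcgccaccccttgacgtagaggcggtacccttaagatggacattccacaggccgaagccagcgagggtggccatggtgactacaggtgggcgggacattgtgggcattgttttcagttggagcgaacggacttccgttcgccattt
Psme4, chr11:30771575-30771774, plus strand: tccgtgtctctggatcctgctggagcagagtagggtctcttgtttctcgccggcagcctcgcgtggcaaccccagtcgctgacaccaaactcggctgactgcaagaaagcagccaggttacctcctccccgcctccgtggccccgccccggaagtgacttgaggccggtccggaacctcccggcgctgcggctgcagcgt
Psmb5 and Psmb6 each had 1 match and Psmd8 and Psme4 had 0. Of the 43 genes, 36 were matched to the promoter table, in which Psma8, Psmb1, Psmb2, Psmb7, Psmc3, Psmd3 and Psmd7 were not found. Within 250 bases before the start, 5 of the 36 genes held the motif (Psmb5, Psmb6, Psmc6, Psmd9 and Psmd12), or 13.9%, against 11.5% of all 27025 genes of the table. The CCAAT box, searched as CCAAT on both strands, was in 14 of the 36 genes, or 38.9%, against 37.5% of all genes. The interferon-stimulated response element, searched as a pair of GAAA boxes 2 bases apart on both strands, was in 3 of the 36 genes (Psmb3, Psmd4 and Psmd9), or 8.33%, against 3.46% of all genes. The first 2 shares lie near those of all promoters, and the third rests on 3 genes.

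In Het, Sox2 itself had values of 0.96 and 0.87, and in cKO it had -0.87 and -0.94. All values are log2 and are given against the median of the 4 arrays, because the deposited table had been centred probe set by probe set. A value of 0 therefore says only that an array sat at the middle of the 4. No expression level is left, so levels cannot be compared between genes and the presence of papilla markers could not be checked. In limma's test over all 19938 genes, adjusted by the Benjamini-Hochberg method at a threshold of 0.05, 0 genes passed for cKO against Het, with 1053 at an unadjusted p under 0.05. The unmoderated statistic also called 0. With 2 arrays in a group, the precision of all values is limited by that number. The SD over all probe sets was 0.14 in Het replicate 1 and 0.16 in cKO replicate 2, against 0.11 in each of the other arrays, so those 2 arrays stood further from the middle.

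Proteasome subunit genes were highest in Het replicate 1 and lowest in cKO replicate 2. Their median was 0.16 and -0.01 in Het replicates 1 and 2 and 0.02 and -0.24 in cKO replicates 1 and 2. The other 2 arrays thus lay together in the middle although they belong to different groups. Their medians near 0 follow in part from the centring. It puts the 2 middle arrays of each probe set equally far above and below 0. Het replicate 1 was the highest array for 25 of the 43 genes, against 25.4% of all genes, and cKO replicate 2 was the lowest for 33, against 25.6%. For 21 of the 43 genes both held at once, against 11.7% of all genes. The genes also varied more between arrays than most: the median distance between the highest and the lowest array was 0.49, and 0.14 over all genes. This was not particular to them. It was 0.36 for the ribosomal genes, 0.38 for ubiquitin shuttles and partners and 0.67 for dermal papilla markers. For antigen processing genes it was 0.14, and for immune and endothelial markers 0.08. In sorted bulk samples, fewer cells of a type and less RNA per cell cannot be told apart.

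**Figure D1:**
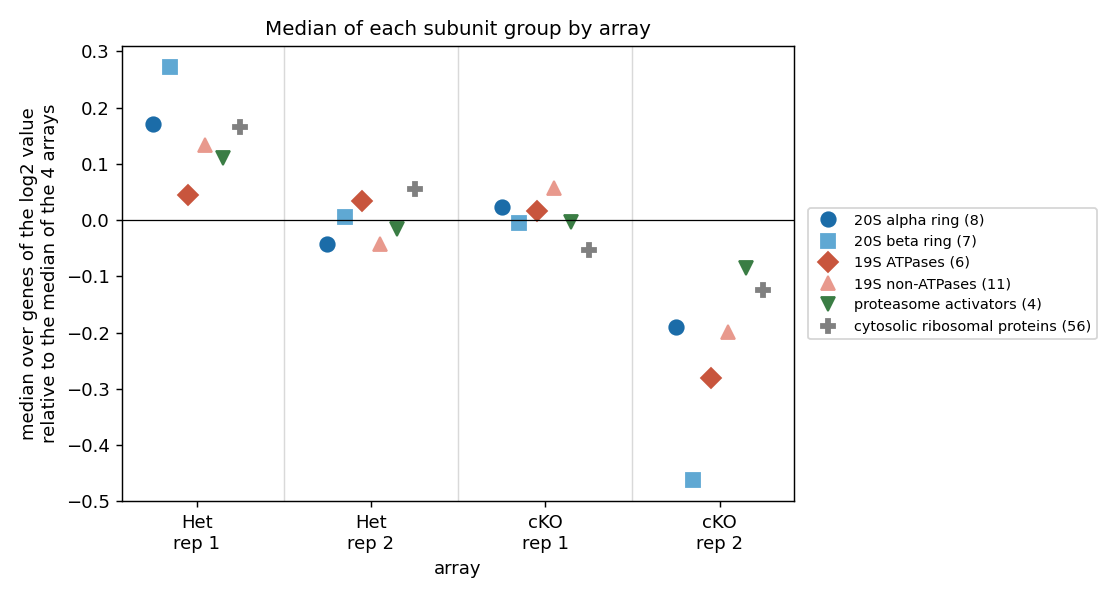
Median log2 value relative to the median of the 4 arrays (vertical axis) in each array (horizontal axis), over the genes of 5 proteasome groups and the 56 cytosolic ribosomal protein genes; each symbol is 1 group, with its number of genes in the legend. The beta ring runs from 0.27 in Het replicate 1 to -0.46 in cKO replicate 2, while all proteasome groups lie near 0 in the other 2 arrays. Centring puts the 2 middle arrays of each probe set equally far above and below 0, so this follows in part from it.

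Between the groups, 35 of the 43 genes had a lower mean in cKO and 8 a higher one, with a median difference of -0.16; over all genes 47.7% were lower, 52.3% were higher and the median was 0.00. In 18 genes both cKO arrays lay below both Het arrays, against 15.6% of all genes, and in 3 both lay above, against 17.8%. None of the 43 genes passed limma's test, and 0.897 was their smallest adjusted p. Of genes lower in cKO, 2 lay under an unadjusted p of 0.05 (Psmd4 and Psmd10), against 3.41% of all genes, and of genes higher 1 did (Psme4), against 1.87%. The difference exceeded the distance between the arrays within each group in 6 genes (Psma6, Psmd4, Psmd8, Psmd10, Psme3 and Psme4), or 13.95%, against 21.7% of all genes. The count of lower genes rested on the arrays at the ends. Without Het replicate 1 it was 27 of 43 (median -0.10), and without cKO replicate 2 it was 27 of 43 (median -0.08). Between the middle arrays, cKO replicate 1 and Het replicate 2, 19 of the 43 genes were lower in cKO, against 51.0% of all genes. Between the end arrays, cKO replicate 2 and Het replicate 1, 39 were lower (median -0.36), against 46.0%. Between arrays of the same number, 32 were lower in cKO replicate 1 than in Het replicate 1 (median -0.11), against 49.6%, and 36 in cKO replicate 2 than in Het replicate 2 (median -0.20), against 47.6%.

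**Figure D2:**
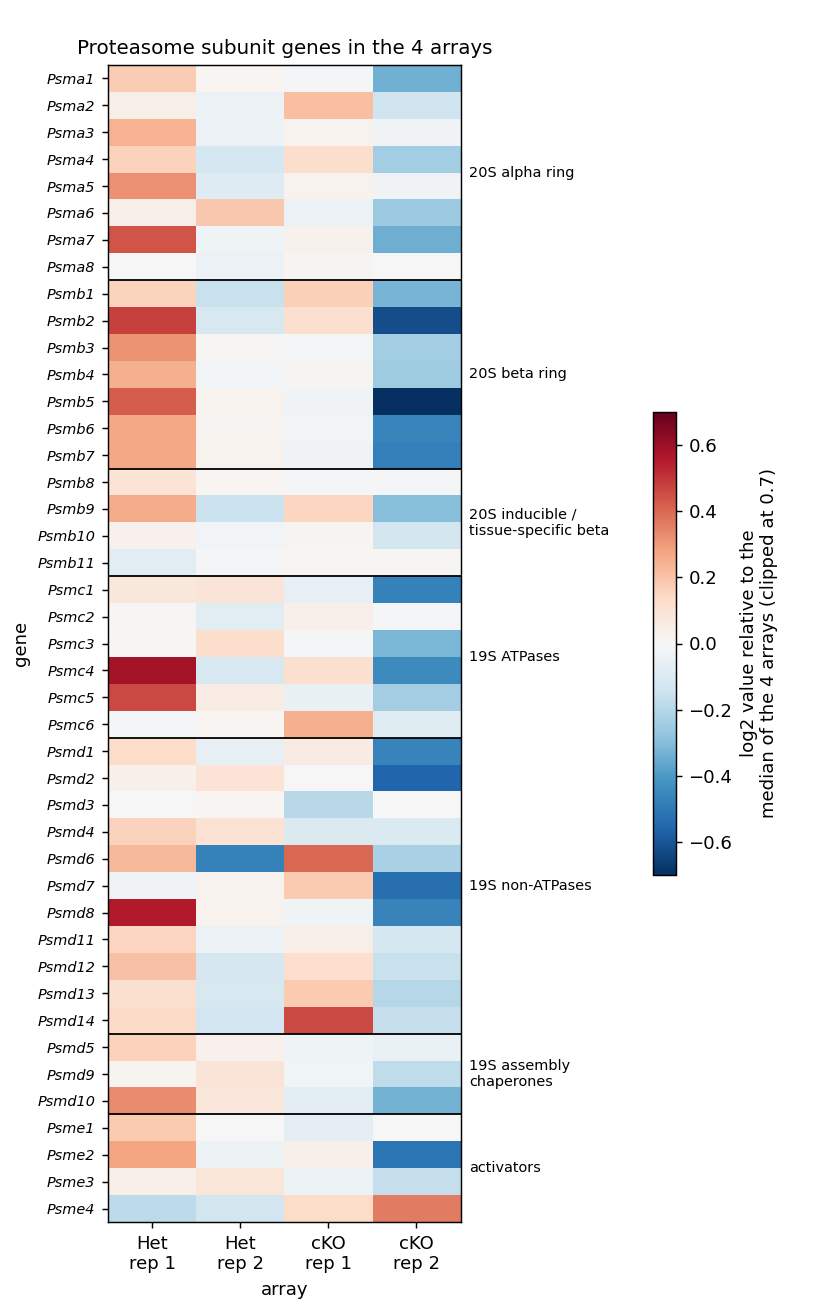
Colour gives the log2 value relative to the median of the 4 arrays for each of the 43 proteasome subunit genes (rows, grouped by subcomplex) in each array (columns); values beyond 0.7 in size take the end colours. The cKO replicate 2 column is the lowest for 33 genes, and Psme4 runs against most rows.

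In the outer rings of the core, 6 of the 8 alpha genes were lower in cKO, with a median difference of -0.11. Psma7 stood at 0.44 and -0.03 in Het and at 0.03 and -0.34 in cKO. Its groups overlapped, and cKO minus Het came to -0.36 ± 0.23 (SE; 2 arrays in each group; adjusted p = 0.982, limma). Psma1 was at 0.18 and 0.01 in Het against -0.01 and -0.34 in cKO, and Psma6 at 0.04 and 0.19 against -0.04 and -0.25. These were the 2 alpha genes whose cKO arrays both lay below the Het arrays, at -0.27 ± 0.14 and -0.26 ± 0.10. That is 25% of the 8, against 15.6% of all genes. Psma3, Psma4 and Psma5 had differences between -0.12 and -0.08 and overlapping groups, and Psma2 was at 0.04 ± 0.14. Psma8, the form of the alpha ring made in testis, varied little between arrays, from -0.04 to 0.02.

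The standard beta ring held the largest differences of the core. All 7 of its genes had lower means in cKO, with a median of -0.39, and in 4 of them both cKO arrays lay below both Het arrays, against 15.6% of all genes. In these 4 (Psmb3, Psmb5, Psmb6 and Psmb7), cKO replicate 1 minus Het replicate 2 was only -0.05 to -0.01. The difference exceeded the distance between the arrays within each group in 0 of the 7, against 21.7% of all genes. Psmb5, which encodes the chymotrypsin-like protease, stood at 0.42 and 0.02 in Het and at -0.02 and -0.87 in cKO. The difference was -0.67 ± 0.35 (SE), or 1.59-fold lower (adjusted p = 0.968, limma). Within cKO, replicate 2 minus replicate 1 was -0.85, larger in size than the difference between the groups, and without cKO replicate 2 that difference was -0.25. Psmb6, the caspase-like protease gene, was at 0.27 and 0.02 in Het and at -0.02 and -0.46 in cKO, a difference of -0.39 ± 0.20. Psmb7, the trypsin-like protease gene, was at 0.27 and 0.03 against -0.03 and -0.48, a difference of -0.40 ± 0.20. The 3 catalytic genes thus shared 1 order of arrays, with Het replicate 1 at the top and cKO replicate 2 at the bottom. Among the structural beta genes, Psmb2 was at 0.48 and -0.11 in Het and at 0.11 and -0.62 in cKO. Its groups overlapped and its difference was -0.44 ± 0.35, or -0.073 without cKO replicate 2. Psmb3 and Psmb4 differed by -0.28 ± 0.15 and -0.23 ± 0.15, and Psmb1 by -0.08 ± 0.22.

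The inducible beta subunits replace the catalytic ones in the immunoproteasome, which forms mainly in immune cells and after interferon gamma. Psmb8, the counterpart of Psmb5, stood at 0.10 and 0.02 in Het and at -0.02 in both cKO arrays, a difference of -0.07 ± 0.05. Psmb10, the counterpart of Psmb7, was at 0.03 and -0.02 in Het and at 0.02 and -0.13 in cKO, with overlapping groups. Psmb9, the counterpart of Psmb6, was at 0.26 and -0.15 in Het and at 0.15 and -0.30 in cKO; both replicate 1 arrays were high and both replicate 2 arrays low. Within each array, the value of Psmb8 less that of Psmb5 was -0.33 and -0.01 in Het, then 0.01 and 0.86 in cKO, and the gap was widest in cKO replicate 2. The other pairs differed less between the groups, by 0.26 for Psmb9 less Psmb6 and by 0.34 for Psmb10 less Psmb7, against 0.60 for this pair. Psmb9 less Psmb6 was -0.02 and -0.17 in Het, then 0.17 and 0.16 in cKO, with no array apart within cKO. Psmb10 less Psmb7 was -0.24 and -0.05, then 0.05 and 0.35. These are differences of centred values and not ratios of abundance. Psmb11, the thymus form, lay between -0.08 and 0.01.

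Of the 6 ATPase genes of the cap, 4 were lower in cKO. Psmc5 stood at 0.46 and 0.05 in Het and at -0.05 and -0.24 in cKO, a difference of -0.41 ± 0.17 (adjusted p = 0.951, limma). Psmc4 was at 0.58 and -0.11 in Het and at 0.11 and -0.45 in cKO. Its difference, -0.40 ± 0.34, was similar in size, but its groups overlapped, and without Het replicate 1 it was -0.058. Psmc1 was at 0.08 and 0.09 in Het, -0.06 in cKO replicate 1 and -0.47 in cKO replicate 2, and Psmc3 at 0.01 and 0.12 against -0.01 and -0.32. In both, cKO replicate 2 was the array that stood away. Psmc2 and Psmc6 had differences of 0.05 ± 0.05 and 0.08 ± 0.13 with overlapping groups. The ATPases, which together form a single ring, thus did not share 1 order of arrays.

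**Figure D3:**
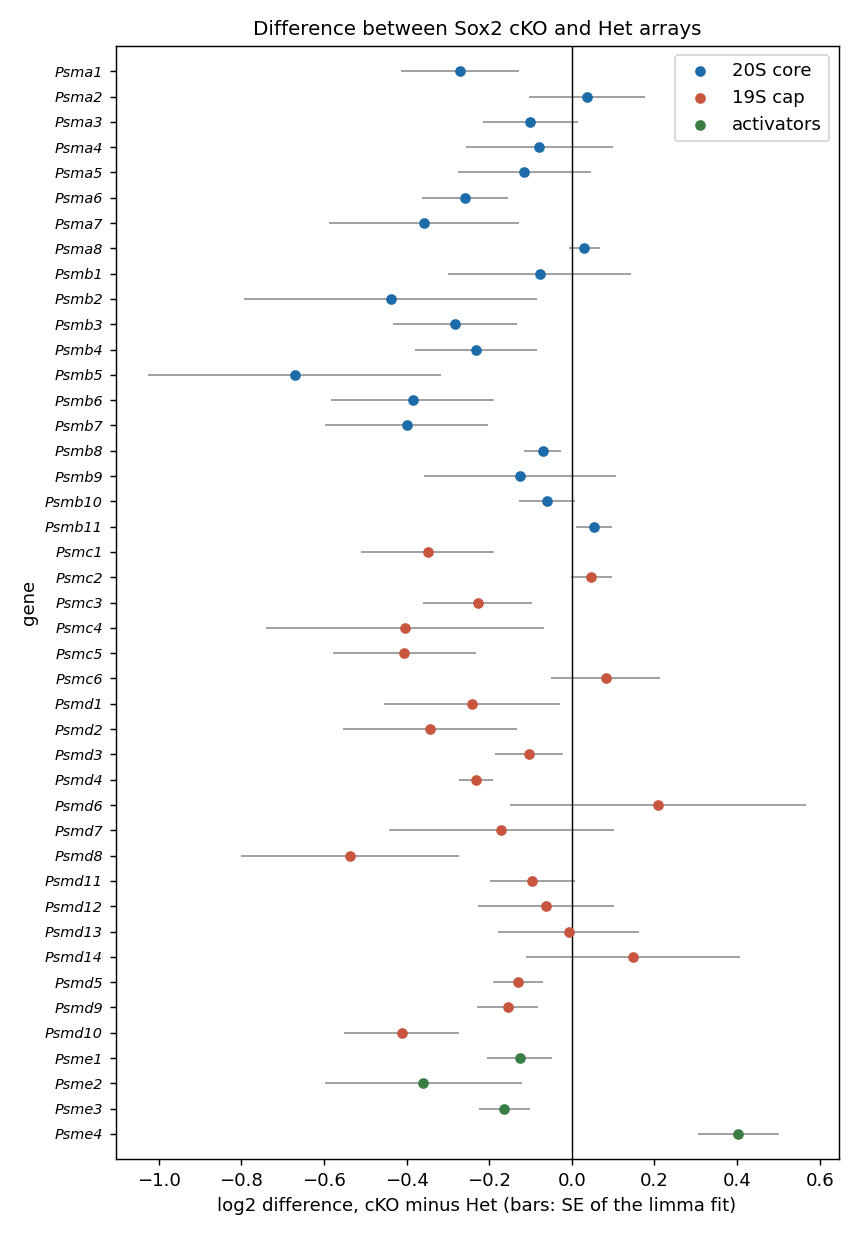
Log2 difference, cKO minus Het (horizontal axis), of each proteasome subunit gene (rows); points are estimates over 2 arrays per group, coloured by core, cap and activators, and bars are the SE of the limma fit. Of the 43 points 35 lie below 0; Psmb5 is the lowest at -0.67 and Psme4 the highest at 0.40.

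Among the other subunits of the cap, 9 of 11 were lower in cKO. Psmd8, a subunit of the lid, stood at 0.56 and 0.03 in Het and at -0.03 and -0.47 in cKO, a difference of -0.54 ± 0.26 or 1.45-fold lower (adjusted p = 0.962, limma). Psmd4, a receptor for ubiquitin chains, was at 0.16 and 0.10 in Het and at -0.10 in both cKO arrays. Its difference was smaller, at -0.23 ± 0.04, but its arrays agreed closely within each group, and it had the smallest p of the 43 genes (unadjusted p = 0.00730, adjusted p = 0.897, limma). It ranged from -0.26 to -0.20 with any 1 array left out. Psmd14, the deubiquitinase of the lid, was at 0.13 and -0.13 in Het and at 0.46 and -0.16 in cKO, and the lid gene Psmd6 at 0.23 and -0.47 against 0.40 and -0.23. In these 2 genes the replicates differed more than the groups, and the differences of 0.15 ± 0.26 and 0.21 ± 0.36 turned below 0 without cKO replicate 1, to -0.16 and -0.11, and that of Psmd6 also without Het replicate 2, to -0.14. Psmd1 and Psmd2, the large scaffold subunits of the base, differed by -0.24 ± 0.21 and -0.34 ± 0.21. Psmd3 (-0.10 ± 0.08), Psmd7 (-0.17 ± 0.27), Psmd11 (-0.10 ± 0.10), Psmd12 (-0.06 ± 0.16) and Psmd13 (-0.01 ± 0.17) had overlapping groups.

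The products of Psmd5, Psmd9 and Psmd10 are chaperones that help to assemble the base of the cap and are absent from the finished particle. Each of these 3 genes had both cKO arrays below both Het arrays, against 15.6% of all genes. Psmd10, also called gankyrin, stood at 0.33 and 0.08 in Het and at -0.08 and -0.33 in cKO, a difference of -0.41 ± 0.14 (unadjusted p = 0.0485, adjusted p = 0.937, limma). Psmd9 and Psmd5 differed by -0.16 ± 0.07 and -0.13 ± 0.06. Psmd10 lies on chromosome X. Xist, the RNA of X inactivation, stood at -4.08 and -0.85 in Het and at 0.85 and 1.23 in cKO; its part in the difference of Psmd10 was not tested.

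The activators did not share 1 direction. Psme4, which encodes the large single-chain activator PA200, stood at -0.18 and -0.13 in Het and at 0.13 and 0.36 in cKO. It had the largest positive difference of the 43 genes, at 0.40 ± 0.10 or 1.32-fold higher (unadjusted p = 0.0185, adjusted p = 0.934, limma). The difference was between 0.29 and 0.52 with any 1 array left out, and cKO replicate 2, the lowest array for most subunits, was the highest here. Psme1 and Psme2 encode the alpha and beta chains of the interferon-inducible ring PA28. Psme2 was at 0.27 and -0.03 in Het and at 0.03 and -0.51 in cKO, with overlapping groups and a difference of -0.36 ± 0.24, and Psme1 was at 0.18 and 0.0023 in Het against -0.07 and -0.0023 in cKO, a difference of -0.13 ± 0.08. Psme3, whose product forms the nuclear ring PA28 gamma, was at 0.04 and 0.08 in Het and at -0.04 and -0.17 in cKO, a difference of -0.16 ± 0.06. A further probe set named Psme2 together with Psme2b and was left out; it stood at 0.05 and -0.05 in Het and at 0.12 and -0.14 in cKO.

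The arrays were also compared by replicate number, which has no stated biological meaning. The proteasome genes were lower in replicate 2 in 40 of 43 cases, with a median difference, replicate 2 minus replicate 1, of -0.25; over all genes 46.9% were lower, 53.1% were higher and the median was 0.00. Both replicate 2 arrays lay below both replicate 1 arrays in 19 genes, against 17.8% of all genes, and above in 1, Psmd3, against 21.4%. At an unadjusted p under 0.05 there were 8 genes, all lower in replicate 2, against 5.35% of all genes in that direction and 2.59% in the other. None passed when adjusted (smallest adjusted p = 0.543, limma), and 0 of all 19938 genes passed, with 1583 under 0.05 before adjustment. The 8 genes were Psma4, Psmb1, Psmb9, Psmd6, Psmd11, Psmd12, Psmd13 and Psmd14. Psmd6 had the largest of these differences at -0.67 ± 0.12, and Psmb9 differed by -0.43 ± 0.08. In 22 of the 43 genes the difference between replicate numbers was larger in size than that between the groups. Over all genes this held for 10583 of 19938, a similar share. Within Het, 32 of 43 genes were lower in replicate 2 (median -0.20, against 49.1% of all genes), and within cKO 39 were (median -0.31, against 46.8%). The comparisons by group and by replicate number use the same 4 arrays and are not independent.

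**Figure D4:**
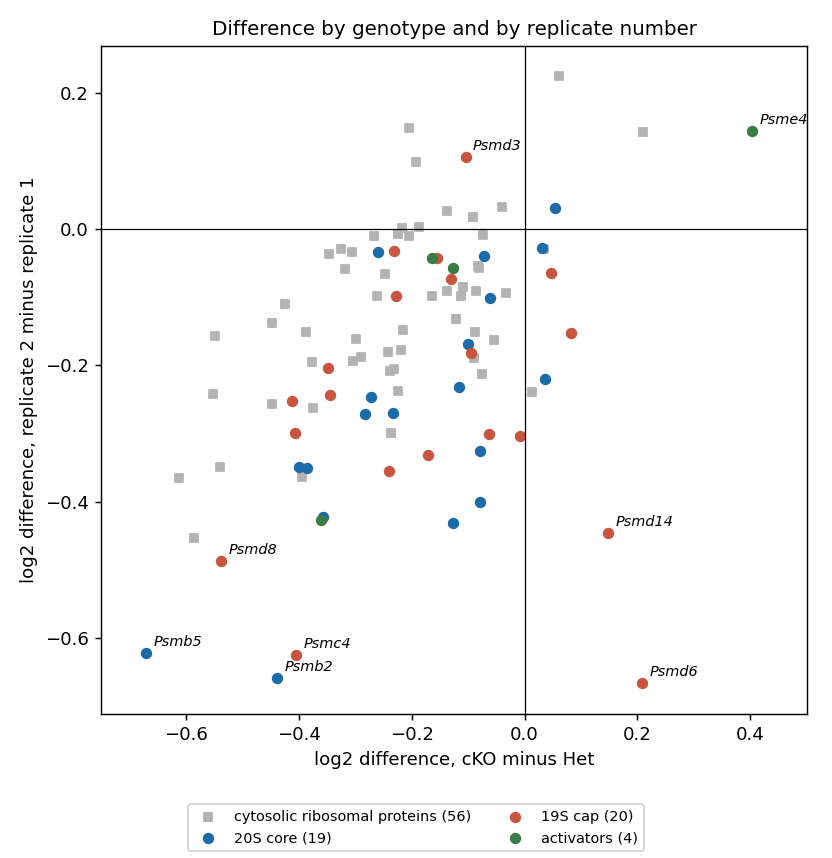
Each point is a gene, with its log2 difference cKO minus Het (horizontal axis) and its log2 difference replicate 2 minus replicate 1 (vertical axis); colours mark core, cap and activators, and grey squares the 56 cytosolic ribosomal protein genes. Of the 43 proteasome genes 34 lie below 0 on both axes; Psmd6 and Psmd14 lie below 0 by replicate number only, and Psme4 lies above 0 on both.

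The cytosolic ribosomal protein genes, of which 56 were measured by probe sets naming them alone, were set beside the proteasome. In Het their medians were 0.17 and 0.06, in cKO -0.05 and -0.12. Het replicate 1 was highest for 43 of the 56 (76.8%, against 25.4% of all genes). For 39 (69.6%, against 25.6%) cKO replicate 2 was lowest. Both held for 32, or 57.1%, against 48.8% of the proteasome genes and 11.7% of all genes. Between the groups 52 of 56 were lower in cKO (median -0.22). In 39 both cKO arrays lay below both Het arrays, against 15.6% of all genes, and in 2, Rpl34 and Rpl36a, both lay above, against 17.8%. By replicate number 47 were lower in replicate 2 (median -0.10), and 10 had both replicate 2 arrays below, or 17.9% of the 56, which is the background (17.8% of all genes). Between cKO replicate 1 and Het replicate 2, 44 of 56 ribosomal genes were lower in cKO, where 19 of 43 proteasome genes were. Without Het replicate 1 the ribosomal median by replicate number was 0.00 and that of the proteasome -0.15, and without cKO replicate 2 they were -0.01 and -0.11. Without cKO replicate 1 the ribosomal median was -0.22 by either comparison, and the proteasome medians were -0.26 by group and -0.28 by replicate number. With all 4 arrays the proteasome median was thus larger in size by replicate number and the ribosomal median by group, but without cKO replicate 1 neither list showed a clear gap, and no test compared the lists.

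Genes that build, partner or regulate the proteasome did not all share this order of arrays. Among 11 assembly factors and partners outside the naming rule, 6 were lower and 5 higher in cKO, and 0 passed over all genes. Psmg4, a chaperone that helps to assemble the alpha ring, stood at 0.40 and 0.36 in Het and at -0.43 and -0.36 in cKO. Its difference was -0.78 ± 0.05, or 1.71-fold lower, and the SD within the groups was 0.03 in Het and 0.05 in cKO (unadjusted p = 1.76e-04, adjusted p = 0.848, limma). It was larger in size than that of any of the 43 subunit genes. The other alpha ring chaperones Psmg1, Psmg2 and Psmg3 differed by -0.07 ± 0.16, -0.10 ± 0.19 and 0.13 ± 0.04, and Pomp, the maturation factor of the beta rings, by -0.07 ± 0.07. Txnl1, a thioredoxin bound to the cap, differed by -0.25 ± 0.14.

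Nfe2l1, the regulator named above, stood at 0.50 and -0.21 in Het and at 0.17 and -0.17 in cKO. It differed by -0.15 ± 0.30 between the groups and by -0.53 ± 0.13 between replicate numbers (adjusted p = 1.00 and 0.563, limma). Both replicate 1 arrays were above both replicate 2 arrays. Nfe2l2, the related regulator of oxidative stress genes, was at 0.26 and -0.05 in Het and at -0.54 and 0.05 in cKO, and Zfand2a, a stress-induced partner of the proteasome, differed by -0.20 ± 0.12. Of 8 measured regulators 6 were lower and 2 higher in cKO, with a median difference of only -0.05, and 47.7% of all genes were lower. Of 8 measured ubiquitin shuttles and partners 7 were lower (median -0.11), against the same 47.7%. Sqstm1, an autophagy receptor that binds ubiquitin, was at -0.29 ± 0.11 and the shuttle factor gene Rad23b at -0.28 ± 0.18. Ufd1, a cofactor of the VCP segregase, was at -0.17 ± 0.22. The genes of antigen processing and of the interferon gamma response include the partners of the immunoproteasome. They were higher in cKO in 11 of 15 cases with a median of 0.05, against 52.3% of all genes. The peptide transporter gene Tap1 differed by 0.05 ± 0.10, the MHC class I light chain gene B2m by 0.19 ± 0.15, the transcription factor gene Irf1 by 0.01 ± 0.11, and the interferon-induced GTPase genes Gbp3 and Irgm1 by 0.12 ± 0.04 and 0.09 ± 0.04. No gene of these lists passed limma's test over all genes.

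Markers of other cells that the sort could hold had medians in other orders of arrays than the proteasome genes, though single markers shared their order. Where medians lay near 0 in all arrays, as for the immune and endothelial markers, their order says little. The keratinocyte markers, 12 of 13 of them lower in cKO (against 47.7% of all genes), had medians of -0.05 and 0.38 in Het and -0.04 and -0.01 in cKO. Het replicate 2 was the highest array for all 13, against 21.2% of all genes. Between cKO replicate 1 and Het replicate 1, 6 of the 13 were lower in cKO, against 49.6% of all genes. The 10 melanocyte markers had medians of -0.09 and 0.15 in Het and -0.06 and 0.06 in cKO. The 18 immune markers stayed between -0.01 and 0.01 in median in the 4 arrays, and the 9 endothelial markers between -0.03 and 0.02. The 8 Schwann and glial markers had medians from -0.05 to 0.06. Of the 8, 5 were lower in cKO, or 62.5%, against 47.7% of all genes. The 3 that were higher, Mbp, Ngfr and Gfap, differed by 0.04, 0.09 and 0.03. At an unadjusted p under 0.05 (limma), 2 of the 8 were lower in cKO, against 3.41% of all genes. Egr2, a regulator of myelination, stood at 0.48 and 0.69 in Het and at -0.48 and -1.05 in cKO, a difference of -1.35 ± 0.23 (adjusted p = 0.897, limma), and Fabp7, a lipid carrier of glia, differed by -0.82 ± 0.08. S100b had the order of the proteasome genes, with 0.72 and -0.24 in Het, then 0.24 and -0.49 in cKO. The 15 dermal papilla markers had medians of 0.14 and -0.06 in Het and -0.05 and 0.06 in cKO. Het replicate 1 was highest and cKO replicate 2 lowest for 5 of them (Sox2, Crabp1, Vcan, Prom1 and Rspo3), or 33.3%, against 11.7% of all genes. Sox2 is the gene deleted in cKO, so its lower cKO values follow from the design. For 6 of the 15, or 40%, cKO replicate 2 was instead the highest array, against 31.1% of all genes. Ndnf ran in the reverse order, at -0.98 and -0.07 in Het and at 0.07 and 1.03 in cKO. Vcan, a matrix proteoglycan gene, stood at 0.62 and 0.15 in Het, then -0.15 and -0.63 in cKO. The part of these cells in the proteasome values was not tested.

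Where a gene had more than 1 probe set, its value was their mean, which concerns Psma3, Psma5, Psmb3, Psmc1 and Psmd2. The 3 probe sets of Psma3 gave differences between the groups of -0.11, -0.08 and -0.12, and those of Psmb3 gave -0.17 and -0.40. Those of Psmd2 disagreed: one stood at 0.12 and 0.06 in Het and at -0.06 and -1.01 in cKO, the other at -0.05 and 0.14 against 0.05 and -0.10, differences of -0.62 and -0.07. Within each of these genes the probe sets share a RefSeq transcript accession in the platform annotation. Signal from near-identical copies such as processed pseudogenes could enter either probe set, so these values are uncertain.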

How the data were processed

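RNA from the sorted cells was amplified along whole transcripts, biotinylated and hybridised to 1 array per sample, per the labels' protocols. The authors deposited values made with RMA, per the submitters' processing notes, taken here as log2. Software version, build and centring: not given in the sources used here. Across all 28853 probe sets the median of the 4 arrays was 0 within 1e-06, so no expression level or background can be read, no filter on low values was possible, and all genes stayed in the tests. The platform annotation named 1 gene for 21789 probe sets, several for 1621 and none for 5443; values were averaged per gene.

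Groups, and replicate numbers, were compared with limma 3.58.1 in R 4.3.3 (lmFit and eBayes, 2 residual degrees of freedom, prior 1.52 and 1.55, two-sided, Benjamini-Hochberg over 19938 genes). Simulated data were used to check that the fit returned planted differences on average. That check does not bear on how many genes were called. SE are those of the fit; lists are described by counts and medians beside all genes, with no set test. Every subunit gene could be named; of other lists, Sox2, Nfe2l1, Nfe2l2, Pomp, Irf1, Tap1, B2m and the 3 largest differences of each of 4 lists were named. Psmg1, Psmg2, Xist, Rpl34, Rpl36a and the markers fall outside this rule and were added after their values were seen. Members and lists were chosen with earlier results of these data known. Figures used matplotlib 3.10.9 in Python 3.11.15. Alternatives were arrays centred on their medians, the median over probe sets, an unmoderated statistic, a block for the replicate number, a robust prior, a filter on SD and each array left out.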

Additional observations from a re-analysis of the deposited data

How the results depend on the processing

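No gene was called in either comparison with arrays centred, the median over probe sets, the unmoderated statistic, the robust prior or any 1 array left out (0 calls in each). With the replicate number as a block, 0 genes were called in either comparison; same-numbered arrays deviated from their group means with a correlation of 0.30 over 19938 genes, and with 2 pairs this is a hint from the data only. What arrays of 1 number share is not stated in the labels. Keeping genes with an SD over the 4 arrays above the median, limma called 116 genes between the groups and 10 between replicate numbers. The 1 subunit gene among them was Psmb5, between the groups (adjusted p = 0.0395, limma). The filter selects on the values tested, and without it the adjusted p of Psmb5 was 0.968 (limma). Its difference ranged from -1.09 to -0.25 with 1 array left out. Leaving out arrays was not repeated within the filtered genes.

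With 1 array left out, the median difference, cKO minus Het, ranged from -0.35 to -0.035 for the core, from -0.23 to -0.07 for the cap, from -0.18 to -0.09 for the activators, from -0.26 to -0.08 for all 43 genes and from -0.28 to -0.16 for the ribosomal genes. By replicate number these were -0.39 to -0.15, -0.40 to -0.10, -0.13 to -0.0077, -0.38 to -0.11 and -0.22 to 0.00. The number of subunit genes with non-overlapping groups, where 3 arrays separate more easily, ranged from 19 to 35 lower and 3 to 11 higher in cKO, and from 20 to 37 lower and 2 to 7 higher in replicate 2; the last was 0 with arrays centred on their medians. Over all genes, with 1 array left out, the non-overlapping shares were 30.4% to 33.4% lower and 31.6% to 38.6% higher in cKO, and 31.9% to 33.4% lower and 34.0% to 39.7% higher in replicate 2. The largest single differences moved with the end arrays: cKO minus Het ranged from -0.75 to -0.058 for Psmc4, from -0.80 to -0.073 for Psmb2, from -0.80 to -0.27 for Psmd8, from -0.62 to -0.07 for Psmd2, from -0.63 to -0.087 for Psme2, from -0.59 to -0.12 for Psma7, from -0.61 to -0.16 for Psmb6, from -0.63 to -0.17 for Psmb7 and from -0.61 to -0.20 for Psmc5, with the values nearest 0 without Het replicate 1 or without cKO replicate 2.

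The direction, cKO minus Het, turned with 1 array left out in 24 named genes. The ranges were -0.35 to 0.10 for Psmb9, -0.14 to 0.014 for Psmb10, -0.16 to 0.46 for Psmd14, -0.14 to 0.56 for Psmd6, -0.14 to 0.21 for Psma2, -0.24 to 0.042 for Psma3, -0.26 to 0.10 for Psma4, -0.32 to 0.092 for Psma5, -0.32 to 0.17 for Psmb1, -0.086 to 0.25 for Psmc6, -0.50 to 0.022 for Psmd1, -0.19 to 0.0021 for Psmd11, -0.23 to 0.10 for Psmd12, -0.20 to 0.19 for Psmd13, -0.53 to 0.19 for Psmd7, -0.50 to 0.21 for Nfe2l1, -0.15 to 0.0087 for Pomp, -0.12 to 0.14 for Irf1, -0.068 to 0.17 for Tap1, -0.46 to 0.12 for Ufd1, -0.25 to 0.099 for Psmg1, -0.28 to 0.081 for Psmg2, -0.85 to 0.12 for S100b and -0.19 to 0.052 for Prom1. By replicate number 12 subunit genes turned, with ranges of -0.10 to 0.016 for Psmb8, -0.18 to 0.068 for Psme1, -0.17 to 0.082 for Psme3, -0.10 to 0.39 for Psme4, -0.16 to 0.10 for Psmd4, -0.25 to 0.19 for Psma6, -0.015 to 0.078 for Psmb11, -0.48 to 0.077 for Psmc1, -0.32 to 0.12 for Psmc3, -0.57 to 0.082 for Psmd2, -0.17 to 0.021 for Psmd5 and -0.18 to 0.093 for Psmd9. The cause was not tested.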
